A study of Mus musculus with 12 samples.

Results

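The lysyl oxidase family of the mouse was described across the 12 RNA-seq samples of the series. Its 5 genes, Lox, Loxl1, Loxl2, Loxl3 and Loxl4, were taken by gene name from the 55862 genes of the deposited table, and each name matched 1 gene. The family was chosen by the measured fold change of Lox between A-iSCs and ASTs, one of the lowest in these data, so that contrast is given here for all members as a description with no test. The same holds for Lox in every comparison that uses ASTs or A-iSCs. The samples fell into 4 groups of 3, with no transgene or mutation described. The labels give the strain C57BL/6 for all of them, while the study's methods give C57BL/6 for the astrocytes and C57BL/6J for the mice of both NPC groups. ASTs were primary cortical astrocytes of newborn mice, grown as a monolayer in medium with serum after the meninges had been taken off, and sampled at day 0 of sphere culture. A-iSCs were the same kind of astrocytes after 5 days as spheres on agarose-coated dishes. P56-NPCs were cells dissociated from the subependymal zone, the stem cell region beside the lateral ventricles, of adult mice at postnatal day 56. P0-NPCs were cells dissociated from the hippocampus at postnatal day 0. Both NPC groups were whole suspensions with no sorting step described, and the number of mice behind a sample was not given in the sources used here. The study's methods state in general that independent experiments were repeated, but neither they nor the labels say whether the RNA-seq replicates of a group were separate cultures or litters. P-values therefore measure only the spread between these samples, which may be technical.

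Lysyl oxidases are secreted enzymes that use copper and a quinone cofactor made from their own residues. They oxidize lysine and hydroxylysine side chains of collagens and elastin to aldehydes, which then form the covalent cross-links that stiffen the matrix. Lox and Loxl1 are made with a propeptide that the protease Bmp1 and its relatives remove, and Loxl1 is known for its part in elastic fibre upkeep together with fibulin 5. Loxl2, Loxl3 and Loxl4 instead carry scavenger receptor cysteine-rich domains, and Loxl2 is known to act on collagen IV of basement membranes. In the brain, fibrillar collagen and elastin are found mostly in the meninges and vessel walls.

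The catalytic domain is shared by the whole family. The following 45 bases of coding sequence, 5′ to 3′ on the coding strand, are shown as an example of a conserved stretch. They come from the GENCODE M21 transcripts on GRCm38, and capitals mark histidine codons, which include those of the copper-binding site. Each stretch spans an exon junction, so its coordinates include an intron.
Loxl1, chr9:58293714-58294387, minus strand: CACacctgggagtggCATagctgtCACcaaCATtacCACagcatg
Loxl2, chr14:69682310-69689043, plus strand: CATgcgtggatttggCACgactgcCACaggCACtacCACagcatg
Loxl3, chr6:83049989-83050131, plus strand: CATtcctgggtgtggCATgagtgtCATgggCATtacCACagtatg
Loxl4, chr19:42598801-42599905, minus strand: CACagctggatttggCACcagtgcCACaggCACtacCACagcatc

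Of these 45 bases, Loxl2 and Loxl4 differed at 7, Loxl1 and Loxl3 at 11, and Loxl1 and Loxl2 at 14. Lox, whose sequence is not printed, differed from Loxl1 at 3. Over whole coding sequences the longest identical run between any pair of members was 32 bases, between Lox and Loxl1, and the shortest of these longest runs was 11 bases. Lox and Loxl1 were 75.0% identical over 581 aligned coding bases, and Loxl2 and Loxl3 70.4% over 1269. The paired-end reads described in the study's methods were longer than any of these runs. A whole read within the coding sequences could therefore not match more than 1 member exactly. The counting rule for reads that fit more than 1 gene was not given in the sources used here.

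The genes lie on 5 chromosomes. Lox (ENSMUSG00000024529) is on chromosome 18 and encodes 411 codons in 7 exons. Loxl1 (ENSMUSG00000032334) spans chr9:58287738-58313186 on the minus strand, with 7 exons and 607 codons. Loxl2 (ENSMUSG00000034205) spans chr14:69609068-69695834 on the plus strand, with 14 exons and 776 codons. Loxl3 (ENSMUSG00000000693) spans chr6:83034173-83052562 on the plus strand, with 14 exons and 754 codons. Loxl4 (ENSMUSG00000025185) spans chr19:42593982-42612813 on the minus strand, with 15 exons and 758 codons. Exon and codon numbers are those of the longest coding transcript. Thus Lox and Loxl1 share a short layout, and Loxl2 to Loxl4 a longer one.

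Levels are given as FPKM, fragments per length of the gene and per scaled library size, so they can be set side by side between genes as well as between samples. Between 17077780 and 24452419 fragments per sample fell on genes. The labels were read against marker lists. All 10 astrocyte markers averaged at least 1 FPKM in ASTs. The list summed to 166 to 188 FPKM there, the lowest sum of the 4 groups. It was 1263 to 2537 in A-iSCs, 265 to 328 in P0-NPCs and 2951 to 3205 in P56-NPCs. Such sums are carried by the most abundant genes. By gene, 4 of the 10 were called higher and 4 lower in P0-NPCs than in ASTs (limma, adjusted p under 0.05). The shares over all genes tested were 38.1% and 40.9%. Neural precursor markers summed to 368 to 389 FPKM in ASTs, 297 to 353 in A-iSCs, 230 to 240 in P0-NPCs and 113 to 143 in P56-NPCs, lowest in the groups labelled NPCs. The suspensions were mixed by their markers. Oligodendrocyte lineage markers summed to 10665 to 12090 FPKM in P56-NPCs, and neuronal markers to 842 to 1035 FPKM in P0-NPCs. In such bulk samples, fewer cells of a type and less RNA per cell cannot be told apart.

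Lox, the founding member, was the most abundant of the 5 in ASTs and close to undetected in P56-NPCs. Its level was 103, 87.1 and 95.5 FPKM in the 3 AST samples (95.4 ± 8.21, SD, n = 3), on 8291 to 8473 fragments. It was 5.75, 7.71 and 5.58 FPKM in P0-NPCs (6.35 ± 1.19), and 0.748, 0.634 and 0.578 FPKM in A-iSCs (0.653 ± 0.0866), where 72 to 74 fragments were counted per sample. In P56-NPCs it was 0.0241, 0.0130 and 0.0889 FPKM, which is 1 to 7 fragments per sample and 10 in all. The order was therefore ASTs, P0-NPCs, A-iSCs and P56-NPCs, with no overlap between the samples of neighbouring groups, whose means differed 15-fold, 9.72-fold and 15.5-fold. The last step rests on few fragments, 7 of the 10 in P56-NPCs being from replicate 3, without which it was 35.2-fold. Among the 11029 protein-coding genes at 1 FPKM or more in ASTs, Lox stood at rank 523 from the top. An antisense gene, AC161119.1, shares 30 exon bases with Lox. Its level was 5.01 ± 1.37 FPKM in ASTs, and it had at most 1 fragment in any other sample. Whether counting used strand was not stated. If AC161119.1 reads over those bases had also been counted for Lox, they would make up 0.0330% of its level in ASTs and 0.0290% in A-iSCs. The same share would be 0.551% in P56-NPCs and 0.00206% in P0-NPCs.

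Loxl1, the elastic fibre member, had the smallest ratio of mean FPKM between ASTs and A-iSCs, 2.42-fold. ASTs had 48.3, 52.7 and 48.1 FPKM (49.7 ± 2.61), A-iSCs 22.5, 22.8 and 16.3 (20.6 ± 3.69), P0-NPCs 12.8, 10.2 and 11.4 (11.5 ± 1.29) and P56-NPCs 2.32, 2.12 and 2.98 (2.47 ± 0.453). The 4 groups followed in that order with no overlap between neighbours. The step from A-iSCs to P0-NPCs was 1.79-fold and that from P0-NPCs to P56-NPCs 4.64-fold. In A-iSCs, P0-NPCs and P56-NPCs alike, Loxl1 stayed above 1 FPKM in every sample.

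Loxl2, known for collagen IV, followed the order of Lox at a lower level in ASTs. It was 34.4, 31.1 and 32.6 FPKM in ASTs (32.7 ± 1.64) and 2.47, 2.33 and 2.75 in P0-NPCs (2.51 ± 0.214). It was 1.49, 1.85 and 1.73 FPKM in A-iSCs (1.69 ± 0.185) and 0.234, 0.173 and 0.303 in P56-NPCs (0.237 ± 0.0652), the last on 15 to 27 fragments. Neighbouring groups did not overlap, though the step from P0-NPCs to A-iSCs was only 1.49-fold.

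Loxl3, which mice need for normal palate and spine development, had the smallest SD relative to its mean in ASTs, at 54.6, 52.7 and 53.3 FPKM (53.5 ± 1.01). A-iSCs had 6.20, 6.29 and 5.20 FPKM (5.90 ± 0.602), P56-NPCs 3.73, 3.88 and 3.32 (3.65 ± 0.290) and P0-NPCs 2.50, 2.51 and 2.72 (2.58 ± 0.126). Loxl3 was the only member with a higher mean in P56-NPCs than in P0-NPCs, by 1.42-fold, an order that turned with scaling by total fragments. It shares 535 exon bases with Htra2, a mitochondrial protease gene on the other strand, at 16.8 ± 0.600 FPKM in ASTs, 6.71 ± 0.532 in A-iSCs, 6.77 ± 0.352 in P56-NPCs and 7.62 ± 1.42 in P0-NPCs. If Htra2 reads over those bases had also been counted for Loxl3, they would make up 3.64% of its level in ASTs, 13.2% in A-iSCs, 21.6% in P56-NPCs and 34.4% in P0-NPCs. With that amount taken off, Loxl3 was 51.6 ± 1.0, 5.12 ± 0.554, 2.86 ± 0.249 and 1.69 ± 0.255 FPKM in the same order of groups, so the order in the deposited scaling did not change.

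Loxl4, the remaining member, was near the detection floor outside ASTs. ASTs had 1.73, 0.831 and 1.95 FPKM (1.5 ± 0.594), on 71 to 153 fragments. A-iSCs had 0.188, 0.160 and 0.257 FPKM (0.202 ± 0.0498), on 16 to 29. The AST and A-iSC samples did not overlap, with means 7.46-fold apart. P0-NPCs had 0.0830, 0.204 and 0.0259 FPKM and P56-NPCs 0.123, 0.0148 and 0.0288, on 1 to 25 fragments per sample. The samples of P0-NPCs overlapped those of both A-iSCs and P56-NPCs, while A-iSCs and P56-NPCs did not overlap. Pooled fragments of A-iSCs stood at a ratio of 3.58 to P56-NPCs, with an exact counting interval of 1.91 to 7.31, and at 1.91 to P0-NPCs, with an interval of 1.24 to 2.96. Single samples set these ratios, since 9 of the 12 P56-NPC fragments were from replicate 1, without which the first ratio was 9.35, and without P0-NPCs replicate 2 the second was 3.95. The second was 1.36 (0.875 to 2.14) without P0-NPCs replicate 3 and 1.61 (0.968 to 2.67) without A-iSCs replicate 3, intervals that include 1. A count of 3 fragments corresponds to up to 0.0444 FPKM for Loxl4.

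**Figure D1:**
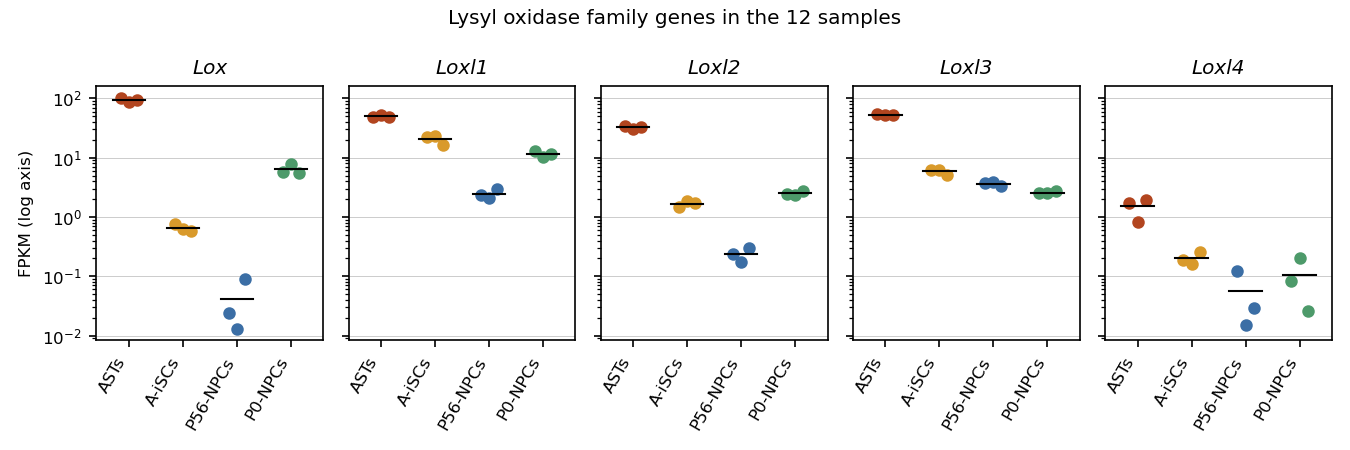
FPKM (log axis) of each family gene in each sample of the 4 groups; points are samples and the black line is the group mean (n = 3). Every gene is highest in ASTs. Lox spans the widest range, from 103 FPKM in an AST sample to 0.0130 in a P56-NPC sample, and the P56-NPC and P0-NPC points of Loxl4 overlap.

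The make-up of the family differed between groups, which can be read within each sample and does not depend on the scaling between samples. The 5 genes summed to 232.7 ± 9.15 FPKM in ASTs, 29.0 ± 4.28 in A-iSCs, 23.0 ± 0.539 in P0-NPCs and 6.45 ± 0.264 in P56-NPCs. Lox led in ASTs with 40.9% ± 1.95 of the sum, ahead of Loxl3 at 23.0% ± 0.470 and Loxl1 at 21.4% ± 1.87. In A-iSCs, Loxl1 made up 70.7% ± 2.53 and Lox 2.27% ± 0.233. Loxl1 also led in P0-NPCs, with 49.8% ± 4.96, but there Lox still held 27.6% ± 5.22. In P56-NPCs, Loxl3 led with 56.7% ± 6.71, ahead of Loxl1 at 38.2% ± 5.41, and Lox held 0.636% ± 0.600. Thus the leading gene was Lox in ASTs, Loxl1 in A-iSCs and P0-NPCs, and Loxl3 in P56-NPCs. With the Htra2 amount taken off, Loxl3 still led Loxl1 in P56-NPCs replicates 1 and 2, but not in replicate 3, where they were at 2.58 and 2.98 FPKM. The share of Loxl3 in A-iSCs, 20.4% ± 1.03, was close to that in ASTs, while that of Loxl2 was 14% ± 0.165 in ASTs and 5.92% ± 1.20 in A-iSCs. These shares are descriptions, with no test.

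**Figure D2:**
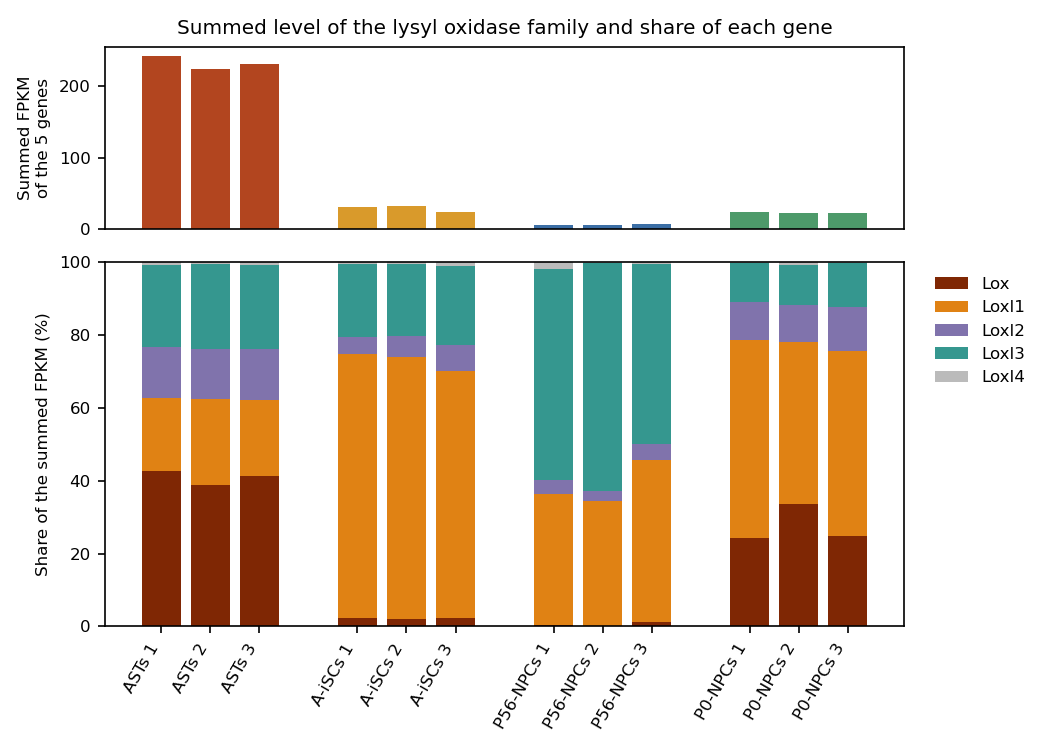
Top, summed FPKM of the 5 genes in each sample; bottom, the share of that sum (%) held by each gene. Lox (dark brown) holds 40.9% on average in ASTs and 2.27% in A-iSCs, and Loxl3 (teal) holds between 49.4% and 62.6% of the small sum in P56-NPCs.

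The comparison of A-iSCs with ASTs sets day 5 of sphere culture against day 0. No monolayer of day 5 is among the samples, so sphere growth and time in culture cannot be told apart. All 5 members were lower in A-iSCs, with no overlap between the samples of the groups. Among the 14087 genes tested in this contrast, 33.9% were lower without overlap, and 54.8% were called by limma in either direction. Of those calls 46.0% were higher, or 60.4% with scaling by total fragments. The contrast chose the family, so nothing is read from that count. On the log2(FPKM + 1) scale, which understates changes of genes at low levels, the fold change was -5.86 for Lox (SE 0.11), which put it at rank 3 from the lowest. It was -3.65 for Loxl2 (SE 0.11, rank 37) and -2.99 for Loxl3 (SE 0.11, rank 100). Loxl1 had -1.25 (SE 0.15, rank 1039) and Loxl4 -1.03 (SE 0.19, rank 1474), the latter on few fragments and at -2.77 with limma-voom. The ratio of mean FPKM was 146-fold for Lox. The median of the 5 was -2.99, against -0.06 over all genes tested.

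Beside this contrast, marker lists of other cell types moved as well. Of 12 fibroblast and meningeal markers, 5 averaged at least 1 FPKM in ASTs, and the list summed to 37.1 to 37.3 FPKM there, of which Ogn gave 25.0 on average, and to 13.6 to 14.8 in A-iSCs. Of the 6 tested, 5 were called lower and 1 higher in A-iSCs, with a median of -1.18, against 29.6% and 25.2% of all genes tested. The 1 higher was Pdgfra, at 2.22. Foxc1 (4.22 FPKM), Crabp2 (3.03), Aldh1a2 (2.16) and Foxc2 (2.06) were the others at 1 FPKM or more in ASTs, and the remaining 7 were at most 0.373, with Igf2 at 0 fragments. The mural list, of which 5 of 9 averaged at least 1 FPKM in ASTs, was called lower in A-iSCs for 4 and higher for 0 of 5 tested (median -3.17). It summed to 1830 to 2283 FPKM in ASTs and 42.0 to 72.0 in A-iSCs. Acta2 alone, the actin of smooth muscle and of contractile cultured cells, averaged 1848 FPKM in ASTs and 41.6 in A-iSCs. Cnn1 (123 FPKM), Tagln (13.3), Pdgfrb (11.1) and Notch3 (5.23) followed in ASTs, and the other 4, Rgs5, Myh11, Kcnj8 and Abcc9, were at 0.00689 to 0.311. Microglial markers summed to 142 to 159 FPKM in ASTs and 1331 to 1679 in A-iSCs. Their part in the family's values was not tested.

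Both NPC groups were also compared with ASTs, in comparisons that use the same AST samples as the contrast above. Against ASTs, 78.9% of the 15146 genes tested in P56-NPCs were called by limma with Benjamini-Hochberg adjustment (39.1% higher and 39.8% lower), and 79% of the 15010 tested in P0-NPCs (38.1% higher and 40.9% lower), and with scaling by total fragments the share of higher calls went from 49.5% to 37.7% in P56-NPCs and from 48.2% to 59.4% in P0-NPCs. Loxl4 passed the filter on low values in both comparisons, and Loxl2 in that of P56-NPCs, only through the ASTs, where they were high, so these fold changes are given with no p-value. In P56-NPCs Loxl1 fell by 3.87 (SE 0.10, adjusted p = 1.12e-07) and Loxl3 by 3.55 (SE 0.07, adjusted p = 3.59e-08) on the log2 scale. For P0-NPCs the order of these genes was the opposite, since Loxl1 fell by 2.03 (SE 0.10, adjusted p = 7.73e-07) and Loxl3 by 3.93 (SE 0.07, adjusted p = 1.56e-08). Loxl2 fell by 3.26 (SE 0.08, adjusted p = 4.13e-08) in P0-NPCs, and its fold change in P56-NPCs was -4.77 (SE 0.08). Loxl4 had -1.22 (SE 0.18) in P56-NPCs and -1.15 (SE 0.18) in P0-NPCs, and Lox -6.53 (SE 0.08) and -3.72 (SE 0.13). Sizes at low levels depend on how low values are treated. With limma-voom Loxl4 had -4.87 and -4.08, Loxl2 in P56-NPCs had -7.11 and Lox in P56-NPCs had -11.28.

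A-iSCs were then set against the brain-derived cells that served the study as positive controls. These comparisons share the A-iSC samples with the choosing contrast. Relative to P56-NPCs, 61% of the 15044 genes tested were called (30.1% higher and 30.9% lower), and Loxl1 and Loxl3 were called higher. Of all calls 49.4% were higher, or 74.4% with scaling by total fragments, under which a call of higher is the common outcome. Loxl1 had a log2 fold change of 2.63 (SE 0.16, limma adjusted p = 1.24e-05), and Loxl3 had 0.57 (SE 0.11, adjusted p = 0.00302), or 1.01 with scaling by total fragments. Loxl2 passed the filter only through A-iSCs, and its value of 1.12 (SE 0.11; 2.84 with limma-voom) is given with no p-value. Lox and Loxl4 were under 1 FPKM in both groups and were not tested. Cell type markers differed as well. Oligodendrocyte lineage markers were lower in A-iSCs for 8 of 8 tested, neuronal for 9 of 9 and ependymal for 6 of 6. Over genes at 1 FPKM or more in both groups these counts were 5 of 5, 4 of 4 and 5 of 5. Neural precursor markers were higher for 6 and lower for 0 of 8, and astrocyte markers higher for 2 and lower for 6 of 10. Their part in the members' values was not tested.

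Relative to P0-NPCs, the members split. The background was 65.1% of 15170 genes called, 31.5% higher and 33.6% lower. Loxl1 and Loxl3 were higher in A-iSCs, by log2 fold changes of 0.78 (SE 0.16, limma adjusted p = 0.00298) and 0.94 (SE 0.11, adjusted p = 0.000175). Loxl2 was lower, at -0.39 (SE 0.11, adjusted p = 0.0166), but this call was lost without A-iSCs replicate 1 (-0.33, adjusted p = 0.0592) or without P0-NPCs replicate 3 (-0.34, adjusted p = 0.0651). Lox had -2.14 (SE 0.14), or -3.28 with limma-voom, given with no test. Loxl4 was not tested. In the same comparison fibroblast and meningeal markers were lower in A-iSCs for 10 of 10 tested, endothelial markers for 7 of 8 and mural markers for 5 of 7, with 2 mural markers higher. Many of these passed the filter only through P0-NPCs. Over genes at 1 FPKM or more in both groups, 3 of 3 fibroblast and meningeal, 0 of 1 endothelial and 2 of 3 mural markers were lower, with 1 mural marker higher. The fibroblast and meningeal list summed to 13.6 to 14.8 FPKM in A-iSCs and 77.8 to 99.1 in P0-NPCs, and its part in these values was not tested.

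The comparison of P0-NPCs with P56-NPCs uses no sample of the contrast that chose the family, so no member was chosen by it. Age, brain region and dissociation protocol differ together between these groups and cannot be told apart. Of the 15394 genes tested, 78.8% were called by limma, 39% higher and 39.7% lower in P0-NPCs. The split depends on the scaling: 49.6% of the calls were higher in the deposited scaling and 73.3% with scaling by total fragments. At this background a call says little about the family. Loxl1 rose by 1.85 (SE 0.12, adjusted p = 3.94e-06). Lox and Loxl2 passed the filter only through P0-NPCs, so their log2 fold changes, 2.81 (SE 0.12) and 1.51 (SE 0.09), are given with no p-value. With limma-voom these were 7.36 and 3.40. The pooled fragments of Lox, scaled for library size, were 153-fold more abundant in P0-NPCs, with an exact 95% interval of 82.9 to 319 that covers counting error only. Without P56-NPCs replicate 3, which gave 7 of the 10 Lox fragments of its group, the ratio was 341, with an interval of 117 to 1654.

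Loxl3 had the opposite sign in that comparison, at -0.38 (SE 0.08, limma adjusted p = 0.00256), but its direction rests on the scaling. With scaling by total fragments alone, which moved the median of all genes by 0.53, it was 0.10 (adjusted p = 0.246). Relative to that median it stayed lower. Loxl4 was under 1 FPKM in both groups and was not tested. Its pooled fragments stood at a ratio of 1.88, with a counting interval of 0.957 to 3.97. It was 4.91 without P56-NPCs replicate 1, 2.64 without P0-NPCs replicate 3 and 0.907 without P0-NPCs replicate 2, so even its direction rests on single samples.

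**Figure D3:**
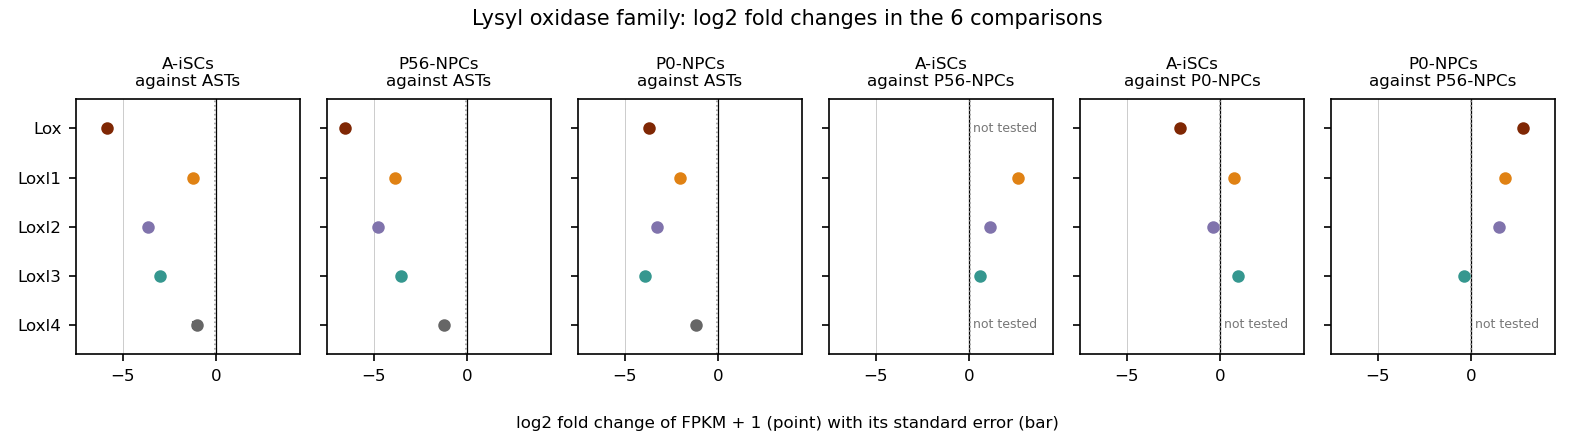
Log2 fold change of FPKM + 1 (point) with its standard error (bar, mostly within the point) for each family gene in the 6 comparisons; the dotted line is the median of all genes tested. All points lie left of 0 in the 3 comparisons with ASTs, and in P0-NPCs against P56-NPCs Loxl3 lies at -0.38 (0.10 with scaling by total fragments) while Lox, Loxl1 and Loxl2 lie between 1.51 and 2.81.

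Cell type markers differed between the P0 and P56 suspensions as well. Of 10 fibroblast and meningeal markers tested, 9 were higher and 1 lower in P0-NPCs, against 39% and 39.7% of all genes tested. Over the 3 at 1 FPKM or more in both groups, 2 were higher and 1 lower. The 1 lower was Pdgfra, at -1.10, which had a log2 fold change of 3.87 in P56-NPCs against ASTs. The list summed to 77.8 to 99.1 FPKM in P0-NPCs and 23.5 to 26.5 in P56-NPCs, sums that add genes differing in opposite directions. Lum, a collagen-binding proteoglycan of fibroblasts, was at 7.42 ± 0.641 FPKM in P0-NPCs and 0.701 ± 0.598 in P56-NPCs. Slc6a13, a transporter of meningeal cells, was at 16.9 ± 3.28 and 0.243 ± 0.0817 FPKM. Endothelial markers were higher for 7 and lower for 0 of 8, with sums of 79.7 to 83.2 and 6.06 to 6.80 FPKM, and mural markers higher for 5 and lower for 0 of 7. Over genes at 1 FPKM or more in both groups, 2 of 2 endothelial and 3 of 4 mural markers were higher and 0 lower. Astrocyte markers went the other way, with 0 of 10 higher and 10 lower. The part of these cells in the values of Lox, Loxl1 and Loxl2 was not tested.

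Genes that work with the lysyl oxidases were described from lists of substrates, partners and regulators, which were chosen with earlier results of these data known. The counts include genes that passed the filter only through the group in which they were higher, which bears on them as on the members. Genes named include those with the largest and smallest fold change of a list, and these are given with no p-value. The fibrillar collagens, the main substrates of Lox, were lower in A-iSCs than in ASTs for 8 and higher for 2 of 10 tested, with a median of -1.94. Over the 6 at 1 FPKM or more in both groups, 6 were lower. The background in that contrast was 29.6% lower and 25.2% higher. Col1a1, the chain of type I collagen, was at 158 ± 24.2 FPKM in ASTs, 2.98 in A-iSCs, 0.846 in P56-NPCs and 34.2 in P0-NPCs. It fell by 5.32 in A-iSCs, the lowest value of its list. Col11a2, a minor fibrillar chain, had means of 0.345 and 4.13 FPKM. All 7 network and associated collagens tested were lower, with a median of -2.57. Col4a1, a basement membrane chain, had means of 87.8 FPKM in ASTs and 5.90 in A-iSCs, but 70.8 in P0-NPCs.

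In P0-NPCs against P56-NPCs, 7 of 10 fibrillar collagens were higher and 3 lower (median 2.39), 8 of 9 network collagens were higher (median 2.82) and 11 of 15 elastic fibre genes were higher and 2 lower (median 1.85), against 39% and 39.7% of all genes. Over genes at 1 FPKM or more in both groups the counts were smaller and less one-sided, with 2 higher and 2 lower of 4 fibrillar collagens, 2 higher of 3 network collagens, and 5 higher and 2 lower of 9 elastic fibre genes. Col3a1, which pairs with type I collagen in soft tissue, had a log2 fold change of 4.75. It was at 0.0822, 0.0508 and 1.09 FPKM in the P56-NPC samples and 32.5 to 36.6 in P0-NPCs, and without P56-NPCs replicate 3 the fold change was 5.07. Col11a2 (-1.59), Col5a3 and Col27a1 were the fibrillar chains called lower. Eln, which encodes elastin, had means of 0.840 and 14.1 FPKM. Eln was under 1 FPKM in ASTs and A-iSCs, at means of 0.926 and 0.643, so its transcript was near the lower limit of the filter in ASTs, where all 5 members were highest. Mfap2, a microfibril gene, had means of 3.40 FPKM in ASTs and 20.1 in A-iSCs, and rose by 2.25 in A-iSCs. Among all elastic fibre genes in that contrast, 4 were higher and 9 lower of 15 tested.

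The proenzyme processing and scaffold list was mostly lower in A-iSCs than in ASTs, with 9 lower and 1 higher of 10 tested. The shares over all genes tested were 29.6% lower and 25.2% higher. The gene called higher was Bmp1, the protease that removes the Lox propeptide, with means of 14.1 FPKM in ASTs and 20.7 in A-iSCs, a rise of 0.50. Fn1, the fibronectin scaffold on which Lox is processed, had means of 299 and 66.3 FPKM and fell by 2.14. Fmod, a collagen-binding proteoglycan, had means of 229 and 4.30 FPKM and fell by 5.45. Collagen modification genes, whose enzymes act inside the cell before Lox acts outside it, were lower for 10 and higher for 2 of 18. Plod1, a lysyl hydroxylase, rose by 0.94, and its relative Plod2 fell by 1.72, from means of 51.5 to 15 FPKM. Serpinh1, the collagen chaperone, fell by 2.63.

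Of the copper supply genes, 3 were higher and 2 lower in A-iSCs of 11 tested, with a median of -0.15 against -0.06 over all genes. In this contrast with ASTs, 25.2% of all genes tested were higher and 29.6% lower. Atp7a, the pump that loads copper into secreted enzymes, had means of 0.959 and 1.16 FPKM (log2 fold change 0.07, limma adjusted p = 0.87). Atox1, the copper chaperone, had means of 209 and 145 FPKM (adjusted p = 0.126). The list of TGF-beta and mesenchymal transition regulators, which includes known inducers of Lox, was lower for 9 and higher for 3 of 15. Twist1, a mesenchymal transcription factor, fell by 3.25, whereas Tgfb1, a TGF-beta ligand, rose by 1.43.

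Hypoxia genes, a set to which Lox itself is often assigned, moved in both directions in A-iSCs against ASTs. Of 15 tested, 5 were higher and 6 lower, against 25.2% and 29.6% of all genes tested. Vegfa rose by 1.63 and Bnip3 by 1.91, from means of 15.7 to 52.6 and 7.92 to 33.0 FPKM, and Adm fell by 2.25. Hif1a itself had a log2 fold change of -0.35 (limma adjusted p = 0.206). Against P0-NPCs, A-iSCs had 11 of 15 hypoxia genes called up and 0 called down, at a background of 31.5% and 33.6%. Over the 12 at 1 FPKM or more in both groups, 8 were higher and 0 lower. Lox was at 0.653 FPKM in A-iSCs and 6.35 in P0-NPCs, and any link between these genes and Lox was not tested.

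**Figure D4:**
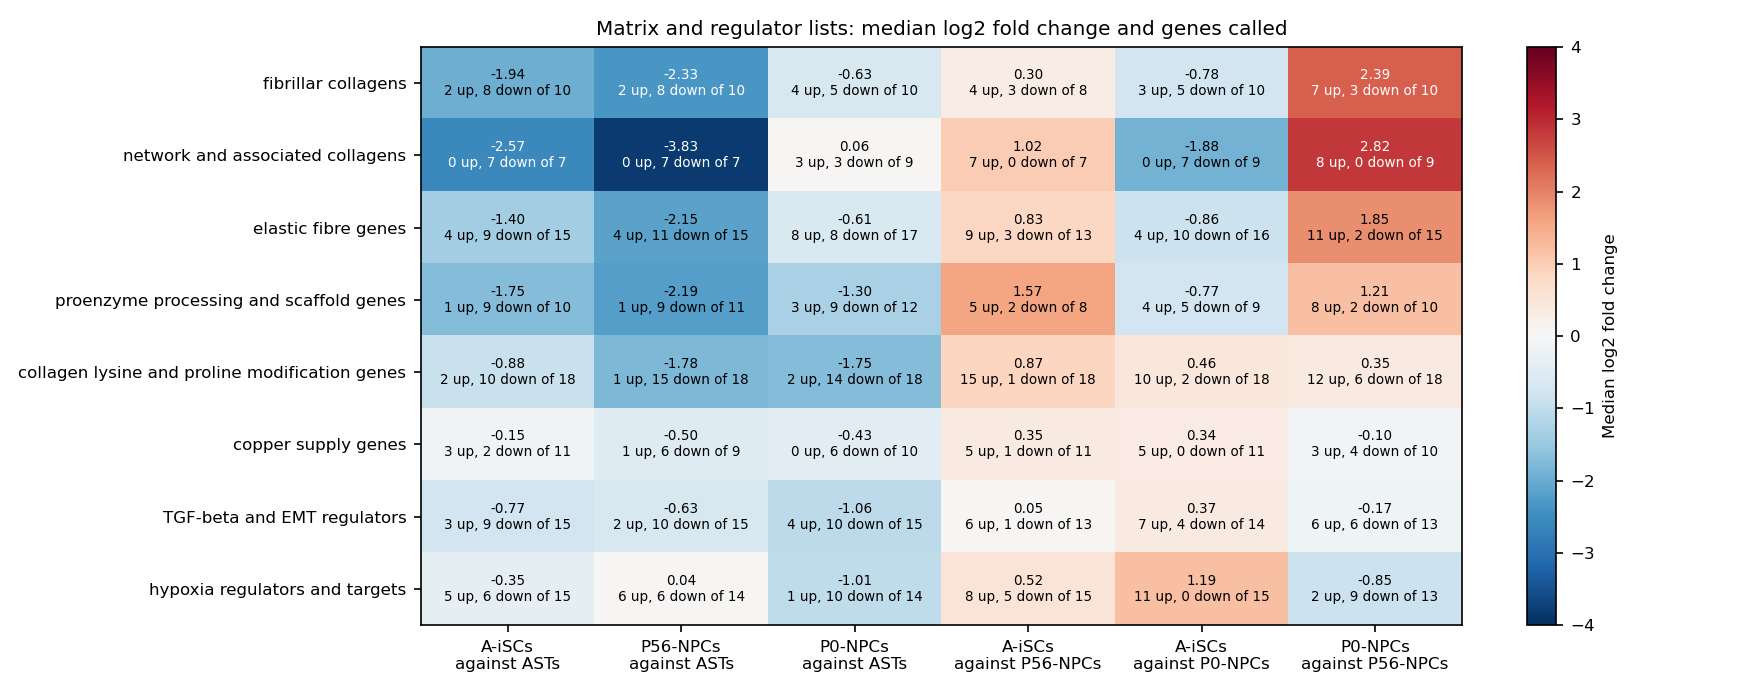
Median log2 fold change (colour and upper number) and genes called higher (up) and lower (down) of those tested for the 8 lists, by comparison. The medians of both collagen lists are below 0 in A-iSCs and P56-NPCs against ASTs and above 0 in P0-NPCs against P56-NPCs, and the medians of copper supply genes lie between -0.50 and 0.35.

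Genes whose pattern was most like each member's were found by the root mean square difference between centred log2(FPKM + 1) profiles over the 12 samples, among 13659 genes. For Lox, whose own profile has a root mean square of 2.55, these were Crabp1 (0.470), Fmod (0.544), Col1a1 (0.629), Igfbp2 (0.820) and Tinagl1 (0.826). Crabp1 binds retinoic acid inside the cell, and Igfbp2 binds insulin-like growth factors. For Loxl1 the nearest were Rcn3 (0.220), Sdc1 (0.252) and Uaca (0.260), and for Loxl2 Twist1 (0.212), Rrm2 (0.293) and Flnc (0.331). Sdc1 encodes a cell surface proteoglycan. For Loxl3 they were S100a7a (0.155), Adra1d (0.182) and Rgs16 (0.198), and for Loxl4 Odaph (0.0875), Tnfsf18 (0.098) and Slc16a9 (0.107). The measure gives small values to genes at low levels, so it is not compared between members.

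**Figure D5:**
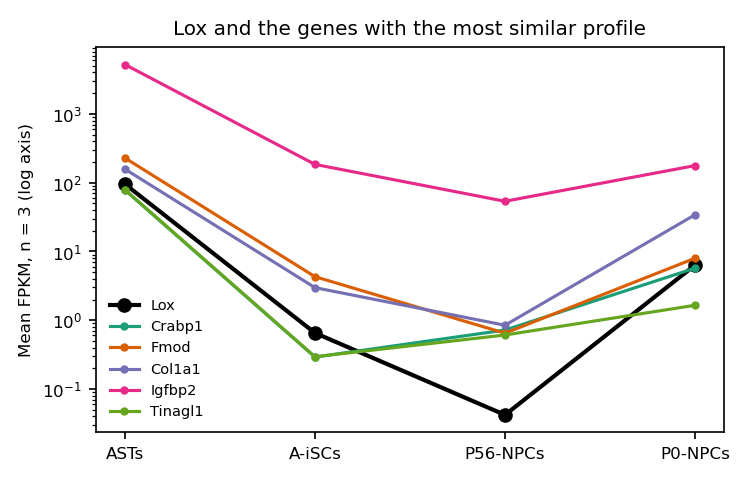
Mean FPKM (n = 3, log axis) of Lox and the 5 genes with the most similar profile in the 4 groups. All 6 are highest in ASTs, and Lox has the lowest mean in P56-NPCs, 0.0420 FPKM.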

How the data were processed

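RNA-seq was run on 12 samples, 3 per group. The authors removed low-quality reads and made paired-end NEBNext Ultra libraries, and they tested genes with DESeq2, 2 groups at a time. The submitters' processing notes list Bowtie 0.12.2 and mm8, yet gene positions in the deposited table are those of GRCm38: 54899 of 55154 shared identifiers have the same start and end in GENCODE M21. The counter and its strand setting were not given in the sources used here. The deposited values are FPKM, as read from the values themselves, since no unit is named: value times the deposited gene length is a whole multiple of 1 step within each sample (100% of values within 0.01), and the library size includes a scaling between samples. Fragments were recovered from these steps.

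Since the values are not raw counts, log2(FPKM + 1) was tested with limma 3.58.1 (R 4.3.3, lmFit and eBayes with a trend), 2 groups at a time, on genes with a mean of at least 1 FPKM in either group. P-values were adjusted by Benjamini-Hochberg over all genes tested, with a threshold of 0.05. Recovered fragments ranged from 17077780 to 24452419 per sample, and intervals cover counting error only. The scripts were tested on simulated data. Alternatives were other scalings, a pseudocount of 0.1, no filter, limma-voom on recovered fragments, all 4 groups in 1 model, a replicate block, and leaving out each sample. The members, lists and rules were chosen with earlier results of these data known. The genes named are the 5 members, members of the lists, among them those with the largest and smallest fold change, and by rule the 5 genes most like Lox and the 3 most like each other member. Ratios of Lox and Loxl4 without each sample, list counts over genes at 1 FPKM or more in both groups, and Loxl3 less Htra2 against Loxl1 by sample, were added after seeing the data. No p-value is given for a member that passed the filter only through the higher group.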

Additional observations from a re-analysis of the deposited data

How the results depend on the processing

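For the members with a p-value in the report, the calls held under the other scalings, filter, pseudocount, test, model and left-out samples, except for Loxl2 in A-iSCs against P0-NPCs without A-iSCs replicate 1 or P0-NPCs replicate 3 (adjusted p = 0.0592 and 0.0651) and Loxl3 in P0-NPCs against P56-NPCs with scaling by total fragments. The median log2 fold change of the 5 members in A-iSCs against ASTs was -2.99, and it was -3.11 with upper-quartile scaling, -2.80 with scaling by total fragments, -3.17 with a pseudocount of 0.1 and -3.19 with limma-voom. Sizes at low levels depend on how low values are treated: Lox against ASTs was -6.99 in A-iSCs and -9.43 in P56-NPCs with a pseudocount of 0.1, and -7.20 and -11.28 with limma-voom, and Loxl4 against ASTs in A-iSCs was -2.34 and -2.77, from -1.03. In P0-NPCs against P56-NPCs, Loxl3 turned to 0.10 with scaling by total fragments. That scaling moved the median of all genes by 0.19 in A-iSCs against ASTs, -0.31 in P56-NPCs and 0.27 in P0-NPCs against ASTs, and 0.47 in A-iSCs against P56-NPCs. In P0-NPCs against P56-NPCs it also turned the copper supply genes from 3 higher and 4 lower to 6 higher and 3 lower. Samples shared replicate numbers across groups, but in no comparison were the deviations of all same-numbered pairs correlated above 0.1 (for example -0.38, 0.34 and 0.43 in A-iSCs against ASTs), so the numbers were not taken as pairs. In P0-NPCs against P56-NPCs the correlations were 0.018, 0.10 and 0.050. With the replicate number as a block, these calls held too, the nearest to the threshold being Loxl2 in A-iSCs against P0-NPCs (limma adjusted p = 0.044) and Loxl3 in P0-NPCs against P56-NPCs (0.00944). Depth limits Lox in P56-NPCs and Loxl4 outside ASTs, which rest on 1 to 29 fragments per sample.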
